A study of Danio rerio with 16 samples.

Results

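Cryoinjury of the ventricle was compared with a sham operation in adult zebrafish that carry the bns502 allele of ankrd1a, a mutation made with CRISPR/Cas9. The comparison rests on 8 of the 16 libraries of the series, which are all libraries labelled as mutant: 4 injured mutant libraries and 4 sham mutant libraries. Injured mutants had their ventricle apex frozen for 25 seconds by a probe chilled in liquid nitrogen, and sham mutants were touched with a probe at room temperature. RNA was taken 7 days later. Each library held the RNA of 3 pooled ventricles, so a library averages 3 fish and the spread between fish was not measured. Both mutant groups carry this allele, and the age, sex and background strain of the mutants are not given in the sources used here. The other 8 libraries, 4 injured and 4 sham, came from wild-type fish of the AB (Oregon) strain, treated alike. They entered the fit and are used below only where a difference between genotypes is tested.

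Unlike the adult mammalian heart, the zebrafish heart regrows muscle after part of the ventricle is killed by freezing. Within days leukocytes clear dead tissue, the epicardium and fibroblasts lay down a temporary matrix, the endocardium is activated, and surviving cardiomyocytes near the wound divide. The protein of ankrd1a belongs to the muscle ankyrin repeat proteins, which bind titin in the sarcomere and also occur in the nucleus. Genes of this family are known as markers of stressed or injured heart muscle.

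The total count was 7452317, 5623732, 6798244 and 11219948 in injured mutant replicates 1 to 4, against 7632568, 7191938, 6292443 and 12254728 in sham mutant replicates 1 to 4. Levels are given as CPM, counts scaled to one common library size, after TMM, a factor per library that aligns the bulk of the genes. The factors were 1.00 to 1.2 in injured mutants and 0.815 to 0.947 in sham mutants, so they differ between the groups. Genes of the mitochondrial genome took 13.1% to 14.3% of the counts in injured mutants and 18.6% to 21.5% in sham mutants. The tissue label was checked with marker lists. The 12 gene IDs listed for ventricle cardiomyocytes took 7.93% ± 0.810 of the counts in injured mutants and 9.87% ± 0.528 in sham mutants (SD, n = 4 each). Of 29 gene IDs for liver, brain and thyroid, 5 passed the filter on low counts. Together the IDs of that list took 0.0114% and 0.00969% of the counts in injured and in sham mutants.

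Injury changed a large share of the transcriptome in the mutants. Of 14986 genes tested with edgeR's quasi-likelihood test, 4336 were called at an adjusted p below 0.05, which is 28.9% of those tested. Of these, 2479 were higher in injured mutants (16.5% of tested genes) and 1857 were lower (12.4%). In 29.2% of tested genes the 4 injured libraries did not overlap the 4 sham libraries. The median log2 fold change over all tested genes was -0.01. The first principal component of the 8 libraries held 51.7% of the variance and separated the injured from the sham mutants. The second held 13.3% and set injured mutant replicates 1 and 2 apart from replicates 3 and 4. Sham mutants spread along it too, from -22.9 in replicate 1 to 27.6 in replicate 3, beside -34.3 to 32.3 in injured mutants.

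Rises and falls differed in size and in the genes they touched. Called rises had a median log2 fold change of 1.36, and 1689 of the 2479 were above 1, 653 above 2 and 165 above 3. Called falls had a median of -0.75, and 441 of the 1857 were beyond 1, 27 beyond 2 and 5 beyond 3. The share of genes called lower grew with the level, although 1080 of the called falls were of genes at 10 to 100 CPM. Small changes are harder to call at low counts, and the part of this in the shares was not tested. Of genes with a mean of 1 to 10 CPM in the mutant libraries, 17.3% were called higher and 4.99% lower, and of the 113 genes above 1000 CPM, 10.6% were called higher and 46.0% lower. Together the genes that rose took 12.8% ± 1.1 of the counts in injured mutants and 4.41% ± 0.296 in sham mutants, and those that fell took 39.7% ± 0.798 in injured mutants and 55.0% ± 1.40 in sham mutants (SD, n = 4 each). In 93 of the genes that rose, every sham library had 3 counts or fewer. The split depends on the TMM factors. Without them the median of all genes was 0.35, and edgeR called 4593 genes higher and 466 lower, so that 90.8% of calls were rises, against 57.2% with the factors. All changes below are therefore changes relative to the bulk of the genes. Calls lost or gained without the factors are given beside many of the genes and lists, but not beside all. In bulk tissue, moreover, fewer cells of a type and less RNA per cell cannot be told apart.

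**Figure D1:**
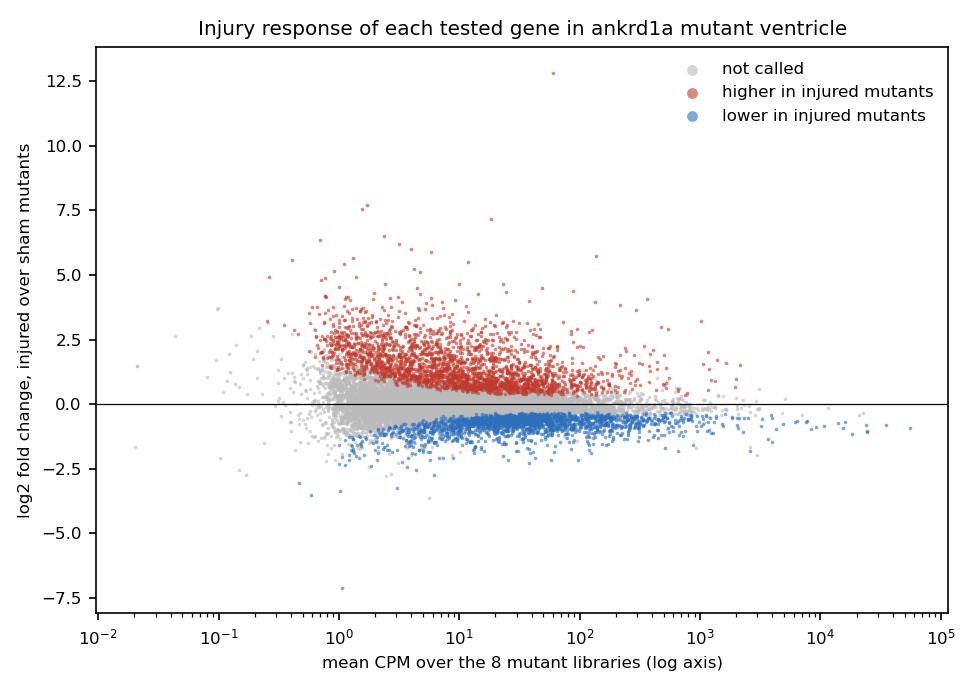
Each point is 1 of the tested genes, with its mean CPM over the 8 mutant libraries on the horizontal log axis and its log2 fold change, injured over sham mutants, on the vertical axis; red points were called higher and blue points lower in injured mutants, and grey points were not called. Large rises lie mostly at the left and middle of the plot, while most called genes above 1000 CPM lie below 0, where 52 of 113 were called lower.

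The genes ranked here had a mean of at least 10 CPM in a mutant group, a gene symbol rather than a clone identifier, and injured and sham libraries that did not overlap. Within these limits, the 15 genes that rose most included a heart hormone, matrix genes and a chemokine. For nppal (ENSDARG00000052948), which encodes a natriuretic peptide related to the A-type hormone of stretched heart muscle, the injured mutant libraries had 44.4, 37.6, 38.0 and 25.8 CPM. Sham mutant replicates 1 to 3 had 0 and replicate 4 had 0.698 CPM. Its log2 fold change was 7.16 (SE 1.26, edgeR adjusted p = 0.000463), and without sham mutant replicate 4 it was 11.06, since all remaining sham counts were 0. SALL1 (ENSDARG00000075891), a zinc finger transcription factor of embryonic organs, had 6.30, 11.1, 20.0 and 8.09 CPM in injured mutants against 0.277, 0, 0.195 and 0.199 CPM in sham mutants. Its sham counts were at the floor of 3 or fewer per library, and it was at least 25.4-fold higher after injury (edgeR adjusted p = 2.50e-06).

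The symbol ANKRD1 is shared by 2 gene IDs, and which of them is ankrd1a is not given in the sources used here. ENSDARG00000075263 had 24.3, 26.0, 30.7 and 11.2 CPM in injured mutants against 0.277, 0.162, 0.781 and 0.698 CPM in sham mutants (log2 fold change 5.51 with SE 0.70, edgeR adjusted p = 2.92e-05). ENSDARG00000076192 had at most 5 counts in a mutant library and was not tested. The RNA level therefore does not check the genotype label.

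Among the other leading rises was the chemokine ccl34a.4 (ENSDARG00000090873), with 29.5, 62.6, 38.6 and 46.3 CPM in injured mutants against 0.693, 2.11, 2.15 and 2.09 CPM in sham mutants (log2 fold change 4.64 with SE 0.58, edgeR adjusted p = 2.62e-05). The small heat shock gene hspb9 (ENSDARG00000078674) had the same log2 fold change of 4.64, but its injured libraries spread over 31.8, 21.8, 19.8 and 4.08 CPM, against 0 to 1.11 CPM in sham mutants. Next came adam8a, a membrane metalloprotease of leukocytes and invading cells (4.49), both COL12A1 genes (4.38 and 4.08), the cartilage matrix gene CILP2 (4.34) and the urokinase gene plaua (4.1). The amino acid transporter SLC43A2 (4.02), the collagen chain col11a1b (3.99), the lysosomal cholesterol carrier NPC2 (3.96), the protease inhibitor TIMP2 (3.96) and the endothelial lipase LIPG (3.86) complete the 15 within these limits. No call among these 15 was lost when any mutant library was left out.

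Falls were smaller, and the 15 that fell most within the same limits included several receptor genes. G6PC1 (ENSDARG00000014967), the catalytic unit of glucose-6-phosphatase, had 25.1, 13.7, 16.9 and 29.0 CPM in injured mutants against 124, 116, 93.3 and 47.5 CPM in sham mutants. The groups did not overlap, and the log2 fold change was -2.16 (SE 0.31, edgeR adjusted p = 7.79e-05). HSD11B2 (ENSDARG00000001975), an enzyme that inactivates cortisol, had 285, 245, 273 and 374 CPM in injured mutants against 1199, 1244, 1057 and 595 CPM in sham mutants (log2 fold change -1.80 with SE 0.23, edgeR adjusted p = 3.18e-05). The cyclin-dependent kinase inhibitor cdkn1ca (ENSDARG00000010878) had 1.07, 1.86, 1.60 and 1.70 CPM in injured mutants against 5.68, 25.2, 7.61 and 4.29 CPM in sham mutants. It fell by 2.75 on the log2 scale (SE 0.58, edgeR adjusted p = 0.00185), and by 1.88 without sham mutant replicate 2, the highest library.

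The vasopressin receptor AVPR1A (-2.01), the secretin receptor sctr (-1.91), the growth hormone receptor ghrb (-1.79) and the orphan receptor gpr146 (-1.84) also fell. So did the centrosome gene CEP85 (-2.15), the kinase gene stk17al (-2.07), the collectin COLEC10 (-2.07), the transcriptional repressor KLF11 (-1.84), TMEM37 (-1.82) and mpped2 (-1.74). The cadherin CDH18 (-2.1) and KLHL38 (-1.80) were called, though not without TMM factors, and CDH18 missed the threshold in 5 and KLHL38 in 3 of the 8 leave-one-out fits. In 10 of these 15 genes sham mutant replicate 4 was the lowest of the 4 sham libraries, and in 10 injured mutant replicate 4 was the highest of the 4 injured libraries. This count was made after the values were seen, and its part in the falls was not tested.

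**Figure D2:**
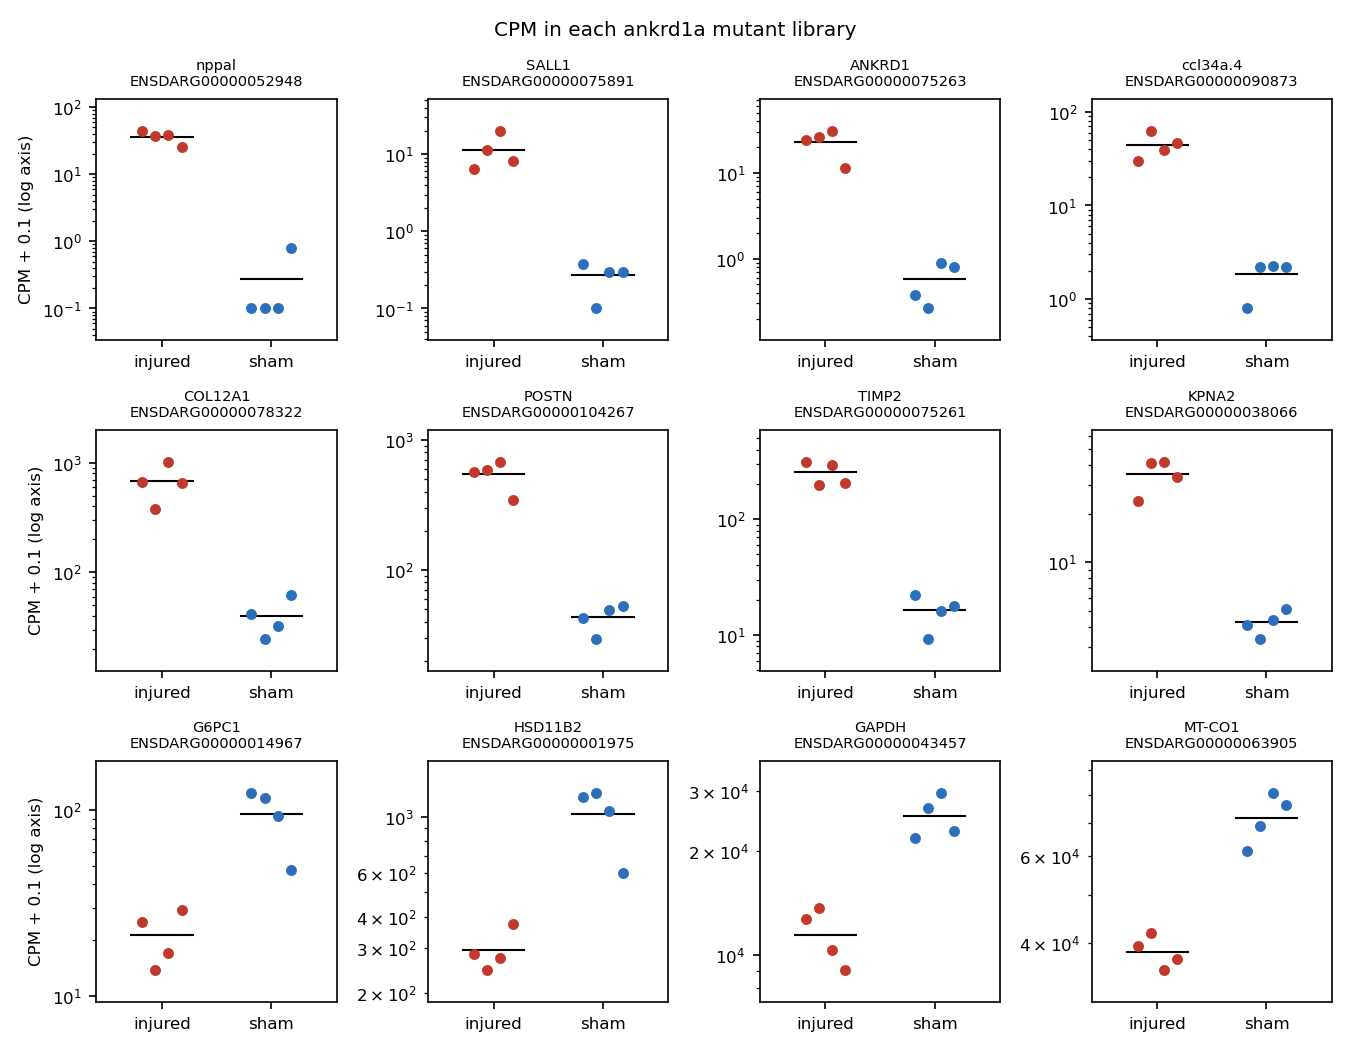
CPM plus 0.1 on a log axis for 12 genes, with injured mutant libraries (red) left of sham mutant libraries (blue), 1 point per library in replicate order and a line at the mean of each group. In each of the 12 genes the injured and sham points do not overlap; G6PC1, HSD11B2, GAPDH and MT-CO1 are lower in the injured libraries and the other 8 are higher.

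Of the 29 lists, cell division had the largest share of members that rose. For each list below, the shares to set beside its counts are those of all tested genes, 16.5% higher and 12.4% lower. Of 61 tested genes of mitosis and cytokinesis, 60 were higher and none lower, with a median log2 fold change of 2.33. It was also 2.33 when the 2 members whose sham counts were at the floor were entered as lower bounds. The exception was cks2, a small cyclin kinase subunit, with 1.52 to 2.31 CPM in injured mutants and 0 to 3.12 CPM in sham mutants. KPNA2 (ENSDARG00000038066), a nuclear import receptor of dividing cells, had 23.9, 41.0, 41.7 and 33.5 CPM in injured mutants against 4.02, 3.25, 4.29 and 5.09 CPM in sham mutants (log2 fold change 3.05 with SE 0.28, edgeR adjusted p = 1.34e-06). The proliferation antigen mki67 rose by 2.63, the DNA topoisomerase TOP2A by 3.07, the furrow protein anln by 2.48 and the kinetochore motor cenpe by 3.40 on the log2 scale. Summed over the list, injured mutants had 503 ± 91.7 CPM and sham mutants 107 ± 15.3 CPM (SD, n = 4 each).

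DNA replication followed, with 42 of 53 tested genes higher and none lower and a median of 1.69. MCM4, part of the helicase that opens DNA, had 51.6, 55.8, 40.5 and 31.1 CPM in injured mutants against 5.68, 3.41, 3.51 and 7.98 CPM in sham mutants (log2 fold change 3.07, edgeR adjusted p = 4.16e-06). The sliding clamp PCNA rose by 1.83, the ribonucleotide reductase subunit RRM1 by 1.95 and thymidylate synthase TYMS by 3.36. Not every member moved: the clamp loader subunits RFC1 (0.19), RFC3 (-0.09) and RFC5 (-0.03) and the repair gene brca2 (0.16) were not called. Injured mutant replicates 1 and 2 held 931 and 1051 CPM of the list, replicates 3 and 4 held 749 and 683 CPM, and the sham mutants 265 to 321 CPM.

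Matrix genes rose in large part. Among 79 tested structural matrix genes, 46 were higher and 2 lower, with a median of 0.90. The IDs of the list took 2.04% ± 0.455 of all counts in injured mutants and 0.650% ± 0.0624 in sham mutants (SD, n = 4 each). COL12A1 (ENSDARG00000078322), a collagen that bridges fibrils, had 664, 379, 1016 and 658 CPM in injured mutants against 41.9, 24.4, 32.0 and 61.9 CPM in sham mutants (log2 fold change 4.08 with SE 0.33, edgeR adjusted p = 4.69e-07). POSTN (ENSDARG00000104267), a matricellular protein of activated fibroblasts, had 568, 583, 676 and 343 CPM in injured mutants against 42.7, 29.1, 49.0 and 52.4 CPM in sham mutants (log2 fold change 3.65 with SE 0.29, edgeR adjusted p = 4.69e-07).

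The fibronectin paralogs rose by different amounts. FN1 ENSDARG00000019815 had 737, 636, 1119 and 906 CPM in injured mutants against 130, 103, 77.7 and 118 CPM in sham mutants, a log2 fold change of 2.98. FN1 ENSDARG00000006526 had 1622, 1199, 1917 and 1714 CPM in injured mutants against 766, 991, 722 and 872 CPM in sham mutants, a log2 fold change of 0.94. The collagen I chains col1a1a (2.02), COL1A1 (1.70) and COL1A2 (1.57) and the crosslinking enzyme LOX (3.30) also rose. The members that fell were COL2A1 (-0.63), a cartilage collagen, and EFEMP2 (-0.59), an elastic fibre protein. Without TMM factors neither was called lower.

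Of 46 matrix proteases and inhibitors, 30 were higher and none lower (median 1.06). TIMP2 (ENSDARG00000075261) had 313, 200, 296 and 208 CPM in injured mutants against 22.3, 9.09, 16.0 and 17.8 CPM in sham mutants, with no overlap (edgeR adjusted p = 4.69e-07). The gelatinase MMP2 rose by 1.09. HTRA1 ENSDARG00000014907, a serine protease, was not called (-0.17), while its paralog ENSDARG00000032831 rose by 2.7.

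Leukocyte genes rose, those of macrophages most widely. Of 48 tested macrophage and lysosome genes, 41 were higher and 1 lower, with a median of 1.92, and the summed level was 3299, 3917, 3933 and 4883 CPM in injured mutants against 2495, 1821, 2160 and 1955 CPM in sham mutants. MPEG1 ENSDARG00000055290, a pore-forming protein of macrophages, had 53.9, 78.4, 78.5 and 122 CPM in injured mutants against 19.0, 4.71, 7.61 and 12.4 CPM in sham mutants (log2 fold change 2.91 with SE 0.37, edgeR adjusted p = 2.62e-05). The leukocyte actin bundler LCP1 rose by 2.72, the actin-binding CORO1A by 2.60, the cathepsin ctss2.1 by 3.15 and the antigen chaperone cd74a by 1.13. The general lysosomal genes PSAP (0.09) and LAMP2 (-0.06) were not called, although PSAP was called higher without TMM factors (0.46), and the iron transporter slc11a2 fell (-0.76), a call lost without TMM factors. Sham mutant replicate 1 held the highest macrophage sum among the sham libraries.

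Neutrophil and lymphocyte lists were thin at this depth. Of 10 tested neutrophil genes 5 were higher (50%, beside 16.5% of all tested genes) and none lower (beside 12.4%), with a median of 0.35. The 5 were il1b (2.74), MMP9 (2.55), CSF3R (1.63), ALOX5 (1.62) and srgn (0.45). The median moved with the library left out. It was 0.07 without injured mutant replicate 2, where 1 gene was called lower, and 0.17 without sham mutant replicate 2. It was 0.53 without injured mutant replicate 1, 0.64 without sham mutant replicate 4 and 0.71 without sham mutant replicate 3. The filter on low counts was rerun in each of these fits, so the tested members could change with the library. The lysozyme lyz and the granule protease npsn were not called. The lyz gene had 0.268, 7.08, 0.246 and 0.848 CPM in injured mutants against 0.416, 0.974, 4.88 and 1.60 CPM in sham mutants, so the groups overlapped. Of 10 tested lymphocyte genes 4 were higher (40%, beside 16.5% of all tested genes) and none lower (beside 12.4%), with a median of 1.31. The 4 were the co-receptor cd4-1 (2.73), il2rga (2.11), nkl.2 (2.77) and the transcription factor IKZF1 (1.39). The lymphocyte median was 0.83 to 1.12 when a mutant library was left out, lowest without sham mutant replicate 3 and, at 0.87, without injured mutant replicate 3. The median of 1.31 with all libraries lies above that range, and here too the tested members could change. The summed lymphocyte level was 39.4 to 52.6 CPM in injured mutants and 28.7 to 35.1 CPM in sham mutants.

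Among 36 cytokine, chemokine and receptor genes, 20 were higher (55.6%, beside 16.5% of all tested genes) and 3 lower (8.33%, beside 12.4%). The median was 0.77. The interleukin il11a had 5.36, 7.93, 14.8 and 4.86 CPM in injured mutants against 0.139, 0, 0 and 0.499 CPM in sham mutants (log2 fold change 5.23 with SE 0.86, edgeR adjusted p = 0.000257). Its shared receptor subunit il6st rose by 1.15 and its own receptor gene il11ra fell by 0.91. The leptin gene lepb had 1.61 to 7.64 CPM in injured mutants and no count in the sham mutants, and was at least 7.72-fold higher. The chemokine cxcl12b fell by 0.95, a call lost without TMM factors (-0.58, edgeR adjusted p = 0.0601). Without these factors no gene of the list was called lower.

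Interferon and antigen presentation genes rose in part. Of 33 tested, 14 were higher (42.4%, beside 16.5% of all tested genes) and 2 lower (6.06%, beside 12.4%), with a median of 0.70. The GTPases gbp1 (2.1) and mxa (1.93) and the signalling inhibitors SOCS1 (2.46) and both SOCS3 genes (1.91 and 1.77) rose. The light chain b2ml of MHC class I fell by 0.63, a call lost without TMM factors, and its paralog b2m was not called (-0.39). Individual MHC genes were present in some libraries and absent from others. mhc1uba had 0, 243, 133 and 109 CPM in injured mutant replicates 1 to 4 and 0 in all sham mutants, and mhc2dab had 0 in all injured mutants and 0, 0, 2.54 and 5.89 CPM in sham mutants. The groups overlapped in both genes, although edgeR called both (adjusted p = 0.00523 and 0.0454). Without TMM factors mhc2dab was not called (edgeR adjusted p = 0.0531). How reads were divided between near-identical MHC genes is not given in the sources used here.

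Epicardium and fibroblast markers rose with the matrix. Of 49 tested, 26 were higher (53.1%, beside 16.5% of all tested genes) and 2 lower (4.08%, beside 12.4%), with a median of 0.68. The lists overlap in the fibronectin, collagen I and periostin genes. Of the other members, the transcription factor snai1b rose by 2.89 and the retinoic acid carrier CRABP2 ENSDARG00000030449 by 3.19. The keratin krt8 of surface epithelia rose by 0.67, while krt94 (-0.70) and the surface sialomucin podxl (-0.73) fell. krt94 had 681, 769, 613 and 907 CPM in injured mutants against 1021, 1429, 1209 and 1160 CPM in sham mutants. Without TMM factors no member of the list was called lower, so krt94 and podxl both lost their calls.

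Endothelium and endocardium markers showed no common direction. Of 52 tested, 9 were higher (17.3%, beside 16.5% of all tested genes) and 6 lower (11.5%, beside 12.4%), with a median of -0.06. The lipid receptor S1PR1 (2.16) rose, and the receptors kdrl (-0.63) and aplnrb (-1.13) and the fenestral gene plvapa (-1.47) fell. The junction cadherin cdh5 was not called, at 322, 348, 335 and 352 CPM in injured mutants against 284, 250, 252 and 316 CPM in sham mutants. Without TMM factors cdh5 was called higher (0.66), 20 members were called higher and 2 lower, and the list's median became 0.29, close to the 0.35 of all genes.

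The smooth muscle list also holds pericyte and matrix genes. Of 20 tested, 13 were higher (65%, beside 16.5% of all tested genes) and 1 lower (5%, beside 12.4%), with a median of 0.89. The one lower was the pericyte marker RGS5 (-0.73), a call lost without TMM factors. TAGLN ENSDARG00000045408 had 421, 490, 346 and 304 CPM in injured mutants against 69.4, 81.8, 91.9 and 107 CPM in sham mutants (log2 fold change 2.16, edgeR adjusted p = 0.000392). CNN1, an actin-binding calponin, rose by 3.23, with 105 CPM in injured mutant replicate 1 and 17.0 to 43.5 CPM in the other injured libraries. The actin acta2, a defining marker, was not called (0.18).

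**Figure D3:**
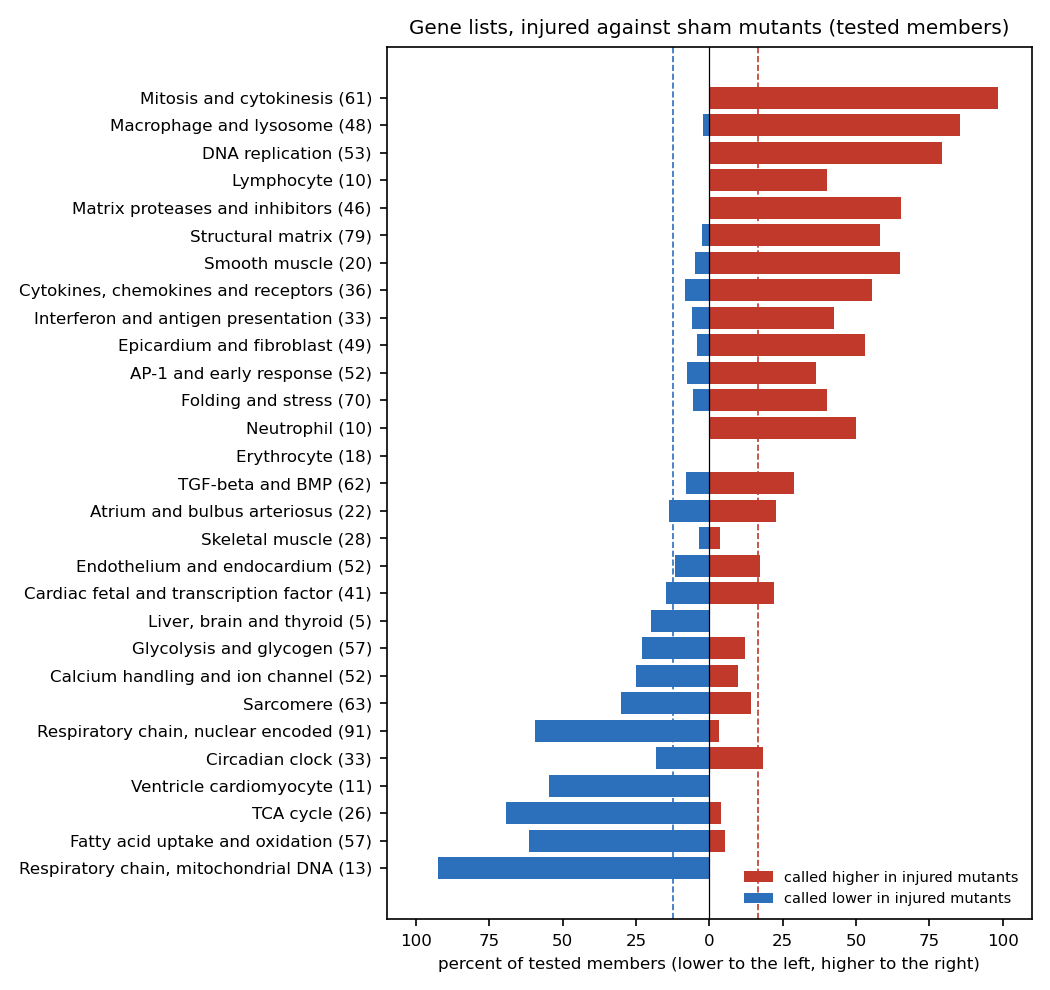
For each of the 29 gene lists, the bars give the percentage of tested members called lower (blue, to the left) and higher (red, to the right) in injured against sham mutants, ordered by median log2 fold change with the highest at the top; the number of tested members is in parentheses and the dashed lines mark the percentages over all tested genes, 12.4 and 16.5. Mitosis, macrophage and DNA replication lists stand at the top, and the mitochondrial DNA, fatty acid and TCA cycle lists at the bottom.

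Of 63 tested sarcomere genes 19 were lower (30.2%, beside 12.4% of all tested genes) and 9 higher (14.3%, beside 16.5%), with a median of -0.40. MYH7 (ENSDARG00000079782), a myosin heavy chain, had 28346, 24813, 20970 and 26482 CPM in injured mutants against 38578, 45453, 43773 and 49754 CPM in sham mutants (log2 fold change -0.82 with SE 0.15, edgeR adjusted p = 0.000579). The myosin light chain MYL7 (-0.71), troponin TNNT2 ENSDARG00000020610 (-0.98) and the myosin-binding protein mybphb (-1.50) fell as well. Without TMM factors 8 members were lower and 13 higher. As a share of all counts the list took 12.1% ± 1.38 in injured mutants and 13.5% ± 0.468 in sham mutants (SD, n = 4 each), so its fall is one relative to the bulk of the genes.

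The rises within the sarcomere list were uneven between libraries. The actin gene ACTC1 ENSDARG00000057911 had 4101, 1672, 973 and 576 CPM in injured mutants against 113, 197, 304 and 164 CPM in sham mutants (log2 fold change 3.24 with SE 0.65, edgeR adjusted p = 0.00126). ACTA1 ENSDARG00000036371 had 1934, 1160, 466 and 254 CPM in injured mutants against 101, 123, 171 and 109 CPM in sham mutants (log2 fold change 2.92 with SE 0.49, edgeR adjusted p = 0.00029). In both genes injured mutant replicates 1 and 2 were the highest, and no injured library overlapped the sham libraries. A further paralog, actc1c, had 1066 CPM in injured mutant replicate 1, 1.48 to 6.92 CPM in the other injured libraries and 3.60 to 6.25 CPM in sham mutants. Its call (log2 fold change 5.74) rests on that library, and without it the value was -0.51. With the replicate number as a block it was 0.82 and not called. Without injured mutant replicate 1 the number of sarcomere genes called higher fell to 5. The actins are near-identical in sequence, so their separate counts are uncertain. The sum of 6 alpha actin genes was 36430, 27577, 16527 and 17605 CPM in injured mutants against 23380, 28861, 30628 and 23360 CPM in sham mutants, with overlapping groups.

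**Figure D4:**
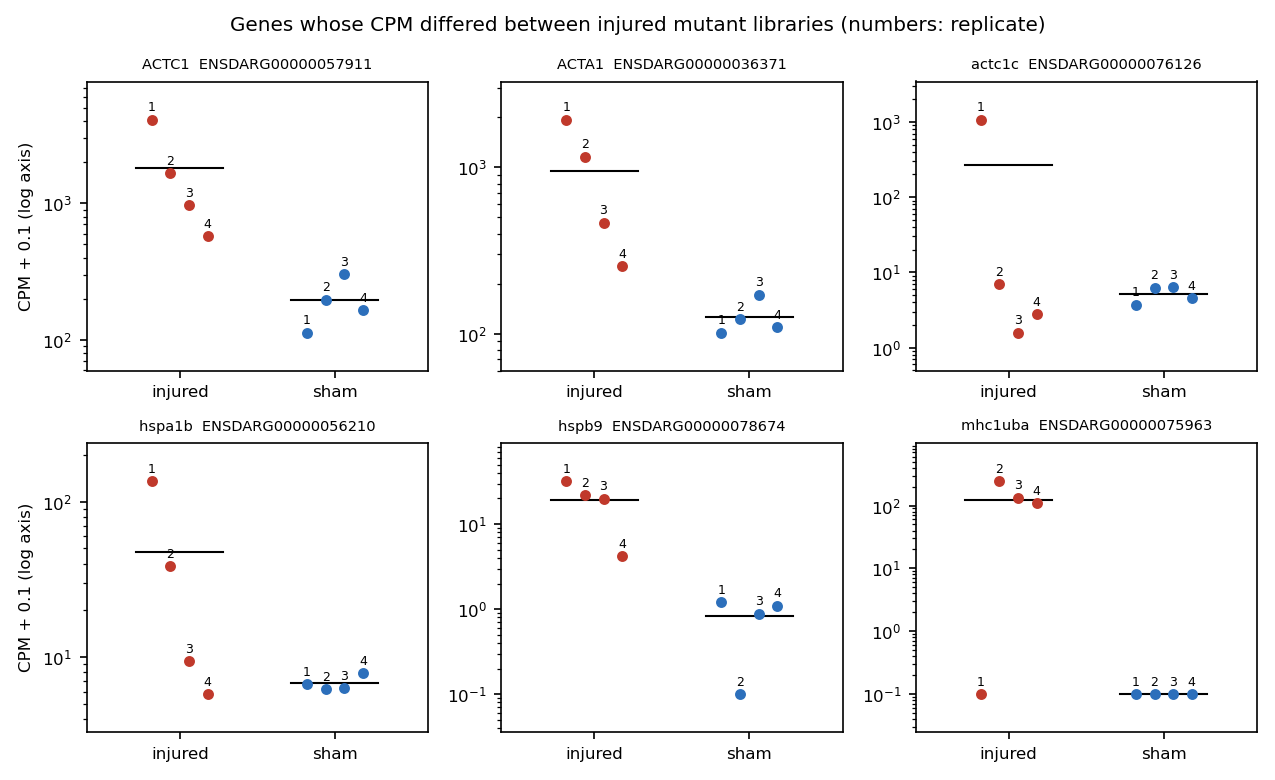
CPM plus 0.1 on a log axis for 6 genes whose level differed widely between injured mutant libraries; injured mutants (red) stand left of sham mutants (blue), the number beside a point is the replicate and the line is the mean of the group. Replicate 1 is the highest injured library in ACTC1, ACTA1, actc1c, hspa1b and hspb9, and it is at 0 for mhc1uba.

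Regulators and stress genes of cardiomyocytes moved singly. Of 41 tested cardiac fetal and transcription factor genes 9 were higher (22.0%) and 6 lower (14.6%), shares near the 16.5% and 12.4% of all tested genes (median -0.07); the number lower was 3 without injured mutant replicate 2 or 3 and without sham mutant replicate 2 or 4. The hormone gene nppb had 920, 677, 572 and 340 CPM in injured mutants against 179, 165, 307 and 335 CPM in sham mutants, so the lowest injured library was just above the highest sham library. With a log2 fold change of 1.35 (edgeR adjusted p = 0.0379), it missed the threshold in 6 of the 8 leave-one-out fits. nppa was not called, at 1848 to 3059 CPM in injured mutants and 1715 to 2397 CPM in sham mutants. RUNX1, a blood and injury transcription factor, rose by 2.38 and the actin-binding xirp1 by 1.01. Both BMP10 genes, whose product is a trabecular growth factor, fell (-1.53 and -1.08), as did tbx5b (-0.86).

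Of 22 atrium and bulbus arteriosus genes 5 were higher (22.7%) and 3 lower (13.6%), again near the shares of all tested genes (median 0.22). The number lower was 1 without sham mutant replicate 2. Without TMM factors 9 were higher and 1 lower. The gene with the symbol MYH6, ENSDARG00000079564, had 3027, 2905, 3511 and 3213 CPM in injured mutants against 889, 622, 1128 and 1813 CPM in sham mutants. It was called higher (log2 fold change 1.51 with SE 0.35, edgeR adjusted p = 0.00381). The gene with the symbol myh6, ENSDARG00000090637, was not called, at 91.1 to 181 CPM in injured mutants and 103 to 276 CPM in sham mutants. The list held 6376 ± 353 CPM in injured mutants and 4093 ± 712 CPM in sham mutants. Most of that rise was the 1 gene ENSDARG00000079564, with a mean of 3164 CPM in injured mutants and 1113 CPM in sham mutants. The sum therefore does not show a rise shared by the list. The 3 members called lower were myl4, TBX5 ENSDARG00000024894 (-0.70) and GJA5 ENSDARG00000040065 (-1.21), beside the 5 called higher. TBX5 had 25.8 to 56.7 CPM in injured mutants and 54.3 to 106 CPM in sham mutants, so its groups overlapped (edgeR adjusted p = 0.0487). The part of atrial tissue left on the ventricle was not tested. Among 11 ventricle cardiomyocyte genes 6 were lower (54.5%, beside 12.4% of all tested genes) and none higher (median -0.51). Without TMM factors 3 of them were lower.

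Calcium handling and ion channel genes were lower in 13 of 52 cases (25%, beside 12.4% of all tested genes). They were higher in 5 (9.62%, beside 16.5%), and the median was -0.27. The median was -0.14 without injured mutant replicate 2 or 3, -0.15 without sham mutant replicate 4 and -0.16 without sham mutant replicate 2. The calcium pump atp2a2a had 4802, 3416, 2941 and 3475 CPM in injured mutants against 4919, 6535, 6391 and 6904 CPM in sham mutants (log2 fold change -0.76, edgeR adjusted p = 0.00691), a call lost without TMM factors. The gap junction genes GJA5 ENSDARG00000040065 (-1.21) and GJA3 (-1.17) and the calcium-binding hrc (-1.48) fell. The other gene with the symbol GJA5, ENSDARG00000069450, was not called (-0.35), and its groups overlapped. GJA1, the connexin of ventricular and fibroblast junctions in mammals, rose by 1.80, and the potassium channel subunit KCNE4 by 2.48. Without TMM factors 6 members were lower and 7 higher.

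Genes of oxidative metabolism fell as a group relative to other genes. Of the 13 protein genes of mitochondrial DNA 12 were lower, with a median of -0.87; the exception was mt-atp8, with 15.2 to 48.2 CPM in injured mutants and 31.5 to 57.3 CPM in sham mutants. MT-CO1, the catalytic subunit of cytochrome oxidase, had 39346, 41899, 35126 and 37120 CPM in injured mutants against 61627, 69027, 80789 and 76449 CPM in sham mutants (log2 fold change -0.91 with SE 0.16, edgeR adjusted p = 0.000419). MT-CO3 (-1.04), MT-CO2 (-1.06) and MT-CYB (-0.82) fell with it. Without TMM factors 7 of the 13 were lower, and MT-CYB was not called (-0.45, edgeR adjusted p = 0.0555). As a share of unscaled counts, the list reached at most 14.3% in an injured library and at least 18.6% in a sham library.

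Nuclear genes of the respiratory chain fell less and less firmly. Of 91 tested 54 were lower (59.3%, beside 12.4% of all tested genes) and 3 higher (3.30%, beside 16.5%), with a median of -0.47. This count depends on the processing: it was 3 lower and 6 higher without TMM factors, 22 lower without injured mutant replicate 3, 25 without sham mutant replicate 3, 28 without sham mutant replicate 2, 29 without injured mutant replicate 4 and 31 when only mutant libraries were fitted. With the replicate number as a block it was 29. The median stayed between -0.58 and -0.36 when a mutant library was left out. NDUFB7, a subunit of complex I, fell most, with 116, 142, 84.7 and 114 CPM in injured mutants against 167, 262, 262 and 249 CPM in sham mutants (log2 fold change -1.04, edgeR adjusted p = 0.000414). The 3 that rose were cox6a1 (1.33), COX5B (0.96) and COX7A2 (0.79), subunits or isoforms of cytochrome oxidase. As a share of counts the list took 3.35% ± 0.395 in injured mutants and 3.53% ± 0.233 in sham mutants (SD, n = 4 each).

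Fuel use genes fell further. Of 57 genes of fatty acid uptake and oxidation 35 were lower and 3 higher (median -0.68), and 23 were lower without TMM factors. ACADVL, which starts the oxidation of long-chain fatty acids in mitochondria, had 2153, 1847, 2066 and 2304 CPM in injured mutants against 4411, 6174, 5453 and 5158 CPM in sham mutants (log2 fold change -1.34 with SE 0.28, edgeR adjusted p = 0.00175). The fatty acid carrier FABP3 (-1.03), the thiolase subunit HADHB (-1.05), the medium-chain dehydrogenase ACADM (-1.06) and lipoprotein lipase LPL (-1.39) fell without overlap. The summed level was 8116 to 8808 CPM in injured mutants and 16224 to 20342 CPM in sham mutants, and the share of counts 0.936% ± 0.0787 and 1.55% ± 0.140 (SD, n = 4 each). The long-chain acyl-CoA synthetase genes ACSL3 (0.91) and ACSL4 ENSDARG00000010752 (1.98) rose.

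In the TCA cycle 18 of 26 genes were lower (69.2%, beside 12.4% of all tested genes) and 1 higher (3.85%, beside 16.5%). The median was -0.58, and 6 were lower without TMM factors. Malate dehydrogenase MDH2 fell by 0.85, citrate synthase CS by 0.62 and the pyruvate carrier subunit MPC2 ENSDARG00000037679 by 0.89. The CS call was lost without TMM factors (-0.27, edgeR adjusted p = 0.0665). The other MPC2 gene, ENSDARG00000024478, had the higher level and was not called (-0.36). OGDH ENSDARG00000103428, a subunit of the oxoglutarate dehydrogenase complex, rose by 1.28, from a mean of 6.87 CPM in sham mutants to 16.6 CPM in injured mutants. Its paralog ogdha, with far more counts, fell by 0.54, from a mean of 825 CPM in sham mutants to 569 CPM in injured mutants. Outside the lists, the adenine nucleotide carrier SLC25A5, which exports ATP from mitochondria, was among the 10 largest losses in CPM. It had 12658, 11587, 7770 and 10682 CPM in injured mutants against 15925, 21227, 24775 and 19205 CPM in sham mutants (log2 fold change -0.93, edgeR adjusted p = 0.00128).

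Glycolysis and glycogen genes moved both ways, and some paralogs moved apart. Of 57 tested 13 were lower (22.8%, beside 12.4% of all tested genes) and 7 higher (12.3%, beside 16.5%), with a median of -0.26. The number lower was 8 without injured mutant replicate 2, without sham mutant replicate 2 and with the replicate block, and 5 without TMM factors. GAPDH, a glyceraldehyde phosphate dehydrogenase, had 12711, 13695, 10345 and 9017 CPM in injured mutants against 21908, 26786, 29540 and 22916 CPM in sham mutants (log2 fold change -1.14 with SE 0.17, edgeR adjusted p = 0.000108). Its paralog GAPDHS had 755, 576, 391 and 476 CPM in injured mutants against 168, 208, 203 and 214 CPM in sham mutants (log2 fold change 1.47 with SE 0.21, edgeR adjusted p = 8.51e-05). Neither pair of groups overlapped. The muscle enolase ENO3 fell (-0.59), a call lost without TMM factors (-0.23, edgeR adjusted p = 0.265) and with the replicate block (0.0761). ENO1 ENSDARG00000013750 rose (2.54), and the other ENO1 gene was not called (-0.10). The hexokinase HK2 (2.68) and the regulator PFKFB3 (2.04) rose while the aldolase ALDOA (-0.68) fell.

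Early response and signalling genes rose in part. Of 52 AP-1 and early response genes 19 were higher (36.5%, beside 16.5% of all tested genes) and 4 lower (7.69%, beside 12.4%), with a median of 0.64. The median was 0.37 without injured mutant replicate 3, and the number lower was 2 without injured mutant replicate 1 and without sham mutant replicate 1 or 2. FOSL1 had 28.7, 26.0, 56.7 and 17.4 CPM in injured mutants against 3.19, 2.11, 4.68 and 4.19 CPM in sham mutants (log2 fold change 3.17 with SE 0.45, edgeR adjusted p = 7.78e-05). FOSL2 (2.81), JUNB (2.25) and the C/EBP factor CEBPB (2.11) rose too, and JUN was not called (0.04). The members that fell include KLF9 (-1.48), a target of glucocorticoids, and PER1 ENSDARG00000056885 (-1.64). KLF9 had 9.38, 4.39, 13.7 and 21.5 CPM in injured mutants against 62.2, 41.6, 30.4 and 6.58 CPM in sham mutants, and sham mutant replicate 4 was within the injured range. The glucocorticoid target FKBP5, not called, had 225 to 534 CPM in injured mutants, and 1058, 985, 623 and 133 CPM in sham mutants, so there too replicate 4 was the lowest sham library.

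TGF-beta and BMP genes were higher in 18 of 62 cases (29.0%, beside 16.5% of all tested genes) and lower in 5 (8.06%, beside 12.4%), with a median of 0.30. The activin subunit INHBA ENSDARG00000012671 (3.17), the latent TGF-beta carrier LTBP1 (2.7) and the ligand BMP6 (2.14) rose, and the receptor gene TGFBR2 was split, with ENSDARG00000034541 lower (-0.75) and ENSDARG00000059363 higher (1.47). LTBP1 had 120, 49.6, 64.9 and 48.3 CPM in injured mutants against 10.9, 10.2, 12.9 and 9.48 CPM in sham mutants. Without TMM factors 31 members were higher.

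Protein folding and stress genes were higher in 28 of 70 cases (40%, beside 16.5% of all tested genes) and lower in 4 (5.71%, beside 12.4%), with a median of 0.52. The constitutive chaperone HSPA8 had 3332, 3190, 1611 and 2286 CPM in injured mutants against 1006, 1516, 1596 and 1246 CPM in sham mutants (log2 fold change 0.96 with SE 0.21, edgeR adjusted p = 0.00271). Members of the endoplasmic reticulum that rose, picked after their values were seen, include HSPA5 (1.42), HSP90B1 (1.38), CALR (1.40), HYOU1 (1.35) and the collagen chaperone SERPINH1 in both copies (1.85 and 1.57). The inducible chaperone hspa1b had 135, 38.3, 9.37 and 5.70 CPM in injured mutants against 6.65, 6.17, 6.25 and 7.78 CPM in sham mutants, and it was called (log2 fold change 2.79, edgeR adjusted p = 0.00664) although the groups overlapped. HSP90AB1 was not called (-0.05), but without TMM factors it was called higher (0.32). All 4 members that fell encode enzymes against oxidative stress: NQO1 (-0.91), catalase CAT (-0.73) and the superoxide dismutases SOD2 (-0.72) and SOD1 (-0.50). Without TMM factors 42 members were higher and 1 lower, and NQO1 was not called (-0.53, edgeR adjusted p = 0.0537).

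Circadian clock genes moved in both directions, with 6 of 33 higher and 6 lower (median -0.48). Each is 18.2% of the list, beside 16.5% higher and 12.4% lower among all tested genes. The activators BMAL1 ENSDARG00000035732 (2.23), bmal2 (2.15) and npas2 (2.43) rose, as did the other BMAL1 gene (1.18), the repressor PER2 (1.31) and nfil3-5 (1.90). The output factors hlfa (-1.45), tefb (-1.39) and dbpa (-1.17), the kinase gene csnk1da (-0.57), NR1D2 (-0.52) and PER1 fell, and neither CLOCK gene was called (-0.50 and 0.54). Without TMM factors 9 were higher and 3 lower, and NR1D2 was not called. The number higher was 3 without injured mutant replicate 1 and without sham mutant replicate 1, and 2 without sham mutant replicate 4. npas2 had 18.2 CPM in injured mutant replicate 1 and 1.46 to 5.23 CPM in the others, against 0.139 to 2.11 CPM in sham mutants, and it missed the threshold in 6 of the 8 leave-one-out fits. The time of day at sampling is not given in the sources used here.

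Lists of cells that could be carried over showed few calls in the mutants, where 28.9% of all tested genes were called. Of 28 tested skeletal muscle genes 1 was higher, ACTA1, which is also a sarcomere gene here, and 1 was lower, CASQ1 (median 0.15), a call lost without TMM factors. The fast muscle genes MYL1, under 2 IDs, and myha had at most 2.34 CPM in a mutant library. Some others reached more, such as pvalb2 with up to 4.56 CPM and myhz2 with up to 3.89 CPM. Of 18 erythrocyte genes edgeR called none (median 0.30); leaving out a library or TMM factors gave at most 2 calls. The summed erythrocyte level was 1076 to 2069 CPM in injured mutants and 927 to 1780 CPM in sham mutants. In the list of liver, brain and thyroid genes vtg2 alone was called lower, and not without TMM factors.

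Whether the response of the mutants differed from that of wild type was tested as the interaction of injury and genotype. edgeR called 0 of 14986 genes, with a smallest adjusted p of 0.0876. Before adjustment 1155 genes had p below 0.05, or 7.71% of the total, and DESeq2 called 42. Leaving out a library gave up to 6 calls, without injured mutant replicate 4, and 4 without injured wild-type replicate 1. The latter library was high in several skeletal muscle and blood genes. It had 93.0 CPM of pvalb2 and 5801 CPM of hbaa1, beside 0.930 to 27.7 CPM and 1144 to 2873 CPM in the other injured wild-type libraries. Of the skeletal muscle list, 6 genes were called higher and 2 lower in wild type. How much tissue was carried over was not tested. Of the 4336 genes called in mutants, 95.7% had the same sign in wild type. Both contrasts called 2635 genes, which is 60.8% of the mutant calls and 69.4% of the 3798 wild-type calls. Of all tested genes, 28.9% were called in mutants. The share with the same sign over all tested genes was not computed.

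Most of the lists held more genes with an unadjusted interaction p below 0.05 than the 7.71% of all tested genes, although no gene passed adjustment. Among them were AP-1 and early response genes with 12 of 52 (23.1%), folding and stress genes with 15 of 70 (21.4%), epicardium and fibroblast markers with 10 of 49 (20.4%) and sarcomere genes with 12 of 63 (19.0%). So were liver, brain and thyroid genes (2 of 5, 40%), neutrophil genes (2 of 10, 20%) and interferon and antigen presentation genes (6 of 33, 18.2%). Structural matrix genes (14 of 79, 17.7%) and matrix proteases and inhibitors (8 of 46, 17.4%) were others. Of the folding and stress list, 28 genes were called higher and 4 lower in mutants, against 15 higher and 15 lower in wild type. Of the AP-1 and early response list, 19 were higher and 4 lower in mutants, against 9 higher and 5 lower in wild type. These counts do not test a difference between genotypes. Mitosis (2 of 61), macrophage (1 of 48) and nuclear respiratory chain genes (0 of 91) held fewer.

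For the 6 genes of smallest interaction p among those with at least 10 CPM in a group, clone identifiers left out, the sham libraries of the genotypes did not overlap, and the injured libraries did. CREB5 ENSDARG00000099002, a leucine zipper transcription factor, had 12.7, 21.9, 26.7 and 11.3 CPM in injured mutants against 2.36, 4.06, 5.27 and 9.28 CPM in sham mutants, and 8.63, 10.3, 8.81 and 14.2 CPM in injured wild type against 14.7, 20.0, 18.5 and 20.7 CPM in sham wild type. Its log2 fold change was 1.75 in mutants and -0.81 in wild type, and the interaction of 2.56 had an edgeR adjusted p of 0.108 (SE 0.47). The lipid transporter MFSD2A had 12.5 to 63.8 CPM in injured mutants against 2.69 to 6.33 CPM in sham mutants, and 7.94 to 19.5 CPM in injured wild type against 14.6 to 43.0 CPM in sham wild type. The shear-responsive factor klf2b rose in mutants by 0.86 and fell by 0.95 in wild type, and the stress gene osgn1 rose by 1.28 in mutants and was -0.65 in wild type.

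The pattern was of another kind in col6a4a and tuft1a, which did not move with injury in the mutants. col6a4a, a collagen VI chain, had 131, 128, 179 and 127 CPM in injured mutants against 140, 148, 120 and 160 CPM in sham mutants, and 167 to 232 CPM in injured wild type against 70.8 to 95.3 CPM in sham wild type. tuft1a had 140 to 169 CPM in injured mutants against 132 to 164 CPM in sham mutants, and 159 to 183 CPM in injured wild type against 284 to 387 CPM in sham wild type. The interaction was -1.28 for col6a4a and 0.98 for tuft1a, each with an edgeR adjusted p of 0.108.

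**Figure D5:**
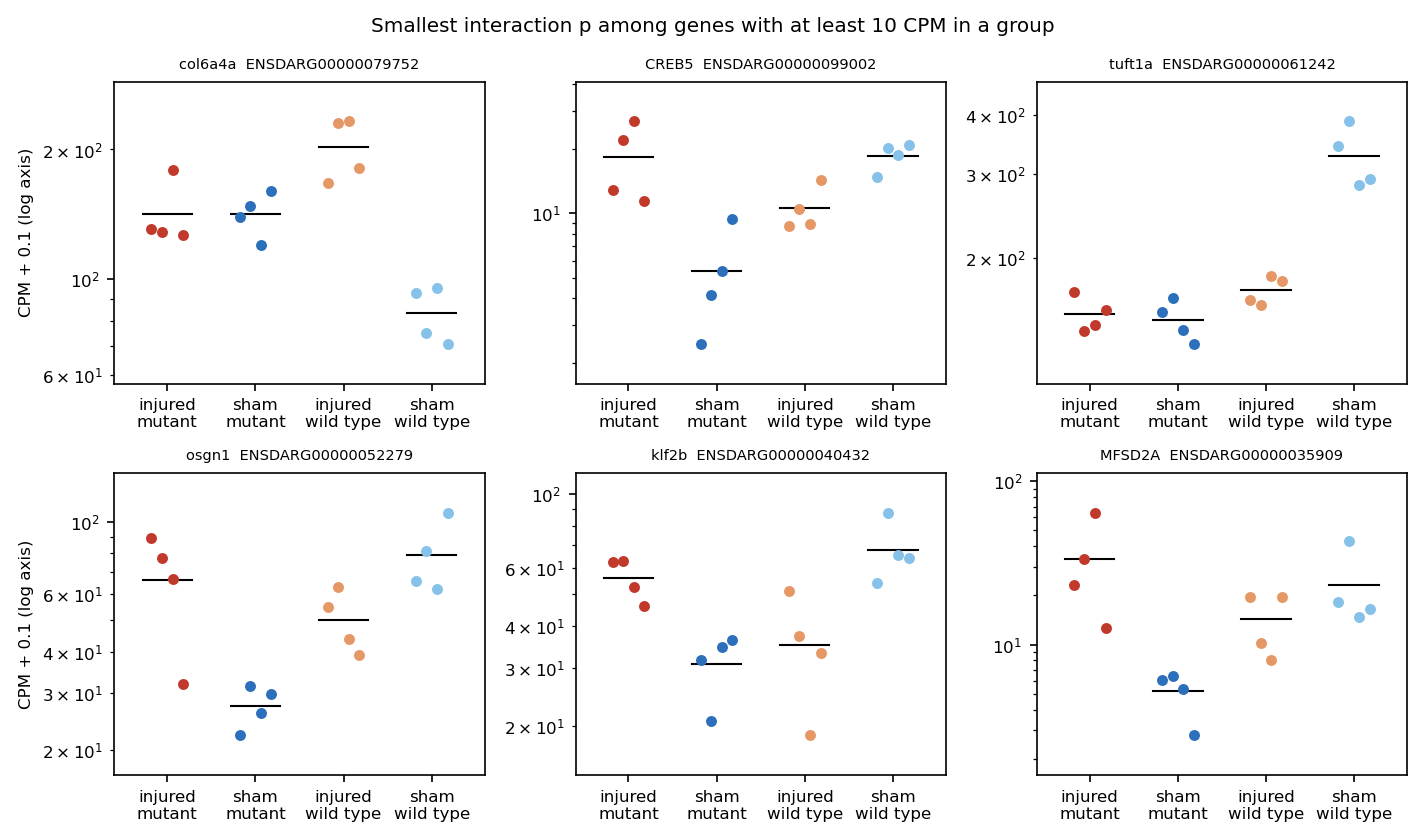
CPM plus 0.1 on a log axis for the 6 genes of smallest interaction p with at least 10 CPM in a group, clone identifiers left out, in injured mutants, sham mutants, injured wild type and sham wild type from left to right, with 1 point per library and a line at the mean. In each gene the sham mutant and sham wild-type points are apart while the injured points of both genotypes overlap; no interaction passed adjustment, each with an edgeR adjusted p of 0.108.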

How the data were processed

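Poly(A)-selected, strand-specific libraries were made from pooled ventricle RNA, per the labels' protocols. The authors deposited estimated counts per gene for 32520 Ensembl gene IDs; 3.00% to 5.02% of the values in a library were not whole, and all were rounded before testing. The submitters' processing notes name fastp 0.23.4, STAR 2.7.0 and 2.7.10 and RSEM 1.3.3, with no role or order. The genome build, the annotation and the use of strand in counting are not given in the sources used here, so counts of near-identical paralogs, overlapping genes and antisense genes are uncertain. Symbols came from a table that names 29201 IDs, of which 6136 share a symbol with another ID.

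Genes were kept with filterByExpr, scaled by TMM and fitted as 4 group means over 16 libraries in edgeR 4.0.16 (R 4.3.3, limma 3.58.1), whose quasi-likelihood test gave the p-values. P-values were adjusted by Benjamini-Hochberg over all tested genes and called below 0.05. Log2 fold changes are injured over sham, with standard errors from the F statistic. A group was taken as at the floor for a gene when none of its libraries exceeded 3 counts. Bounds and floors cover counting error only, as PCR copies of 1 molecule are counted apart. Principal components used log2 CPM with a prior count of 2. Pairs of libraries within a mutant group had chi-square values of 8.91 to 39.2 times their degrees of freedom, so none was a copy.

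The 29 gene lists (1440 names, 1343 matched to a symbol, 1132 distinct IDs tested) and the comparison were chosen with earlier results of these data known; calls in them are no independent support. Named were the 15 strongest called rises and 15 strongest called falls (libraries not overlapping, mean of at least 10 CPM in 1 mutant group, clone names left out), the 10 largest gains and losses in CPM, in each list the 4 members with most counts and its largest called rise and fall, the 6 genes of smallest interaction p with at least 10 CPM in a group, and the ANKRD1 genes. Other list members named in the text were chosen after their values were seen.

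Alternatives were DESeq2 1.42.0, RLE scaling, no TMM factors (added after seeing the data), nuclear genes alone, no filter and a stricter filter of 1 CPM in 4 libraries, mutant libraries alone, a test against a log2 fold change of at least 1, a block for replicate number, and each library left out in turn. The filter on low counts was rerun in each edgeR fit without a library, so the tested members of a list could change. Labels give no batch. Scripts were tested on simulated counts.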

Additional observations from a re-analysis of the deposited data

Results flagged for a closer look

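In 178 groups of 4 libraries, 1 library lay far from the other 3 in 11 cases by Dixon's criterion for the gap over the range; chance alone gives about 1 in 20. None was weighed further. The 11 are not all the outlying values in the text. Injured mutant replicate 1 stood far above the other injured libraries in actc1c, which is not among the 11.

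Among the injured mutants, replicate 4 had the lowest actb1 level (1566 CPM, next 1734), replicate 2 the highest MT-CO2 level (18363 CPM, next 15390) and replicate 3 the highest col6a4a level (179 CPM, next 130.9). Of the list means of log2 CPM, interferon and antigen presentation was lowest in injured mutant replicate 1 (3.80, next 4.35), the library with no mhc1uba count. Liver, brain and thyroid genes were highest in injured mutant replicate 3 (3.19, next 2.57).

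Among the sham mutants, replicate 4 alone had counts of nppal (0.698 CPM, next 0). Replicate 1 was lowest for ccl34a.4 (0.693 CPM, next 2.1) and for MT-CO3 (26210 CPM, next 34560). Replicate 2 was highest for cdkn1ca (25.2 CPM, next 7.61) and lowest for the mean of epicardium and fibroblast genes (4.62, next 4.80). Replicate 3 was highest for ANXA2 (1043 CPM, next 764).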

How the results depend on the processing

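The count of called genes in the mutants was within 1.5 times of 4336 under DESeq2 (4651), RLE scaling (4322), nuclear genes alone (4300), both filters (4094 and 4390) and mutant libraries alone (3931), and was 3361 to 3991 without a mutant library. Without TMM factors 4593 genes were higher and 466 lower. Against a minimum log2 fold change of 1, 588 genes were called, 577 higher and 11 lower. The interaction, 0 in edgeR, was 42 with DESeq2, 10 without a filter and 0 to 6 when a mutant or wild-type library was left out. Whether the replicate numbers pair the libraries is not known. Correlations of same-numbered deviations were -0.15 to 0.14, with 1 of 4 best with its own number, and 4 pairs are too few to decide. With the replicate block 3497 genes were called, 2088 higher and 1409 lower. Of 2931 alternative values for the 184 named genes, 2745 kept direction and side of the threshold, 150 lost and 35 gained a call, and 1 reversed: actc1c, which ranged from -0.51 without injured mutant replicate 1 to 6.15 without injured mutant replicate 3. Of 928 list counts and medians 839 stayed close and 89 moved. The cause was not tested. The planned comparison of promoter motifs by strand was not run, since promoter sequences were not used here. At 5623732 to 12254728 counts per library, 10 of 15 neutrophil IDs and 10 of 31 lymphocyte IDs passed the filter on low counts. In every mutant library 2 of the neutrophil and 9 of the lymphocyte IDs had 3 counts or fewer.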
